A study of Rattus norvegicus with 8 samples.

Results

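The RNAs described here were the 5S ribosomal RNA copies that carry a name of their own in the table of plasma exosome RNA, namely the rows called 5S_rRNA with a number and the row Rn5s. They were chosen by name, as those above 0 in at least 1 library. This rule used no group difference, but earlier results of these data were known when it was set. Of the 29541 rows of the table, 12 had such a name. Of these, 5 were at 0 in all 8 libraries and 7 were kept as members. No row of the table used here had a name starting with 5_8S_rRNA, so the members include no 5.8S copy. Rows with a LOC name are not members, although RefSeq lists some of them as rRNA of the same size, and they appear only for comparison.

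Ribosomal 5S RNA is a short RNA of the large ribosomal subunit. RNA polymerase III makes it, with the zinc finger factor TFIIIA, from repeated genes that lie in tandem arrays apart from the genes of the other ribosomal RNAs. The ribosomal proteins Rpl5 and Rpl11 bind it before it is built into the ribosome. Mammalian genomes also hold many scattered 5S copies and pseudogenes that resemble the array copies. The 5.8S RNA, in contrast, is cut from the long precursor that RNA polymerase I makes.

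Plasma exosomes came from male Sprague Dawley rats, 9 to 10 weeks old on arrival, of the cohort that received no alpha-synuclein fibrils. There were 4 sedentary libraries, from rats kept in the room while others ran, and 4 exercised libraries. For exercised rats, a month of training (1 month, 5 days a week) consisted of treadmill sessions of 30 min at 20 m/min without incline, each begun with 5 min at 10 m/min. Blood was taken by cardiac puncture within 30 min of the last exercise, and vesicles were precipitated from 1.5 mL of plasma. The labels do not say whether the plasma of several rats was pooled, so p-values measure the spread between libraries. Ribosomal cDNA was depleted during library preparation, so the levels are those left after depletion.

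Values are TPM, an abundance per transcript length whose total is equal in all libraries. The 10 rows of highest mean TPM held 98.1 to 99.2% of that total, and no member was among them. A member's TPM therefore moved with the share left outside these rows. For this reason the comparisons of members between groups were also made on rescaled TPM, in which the total outside the 10 rows was set equal in all libraries at its mean. Reads recovered from the TPM steps came to 17694853 to 31357153 per sedentary library and 10020804 to 22094584 per exercised library. Outside the 10 rows, 64776 to 139868 recovered reads were left per library, and exercised a had the fewest. Recovered reads are the smallest counts that fit the TPM, so totals of them are lower bounds. The extracellular vesicle markers (Cd63, Cd9, Cd81, Tsg101, Pdcd6ip and Flot1) were all above 0 in at least 1 library, but their summed level was only 0.255 to 1.41 TPM.

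Rn5s, the named 5S rRNA gene, held nearly all reads of the group. It took 2600 of the 2696 member reads (96.4%), and the 6 copies named 5S_rRNA shared the other 96. As deposited, Rn5s (ENSRNOG00000068794) was at 201, 124, 99.2 and 199 TPM in sedentary a, b, c and d. It was at 23.1, 54.8, 368 and 349 TPM in exercised a, b, c and d. Exercised a and b lay below all 4 sedentary libraries and exercised c and d above all 4, so the groups overlapped.

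The group means of Rn5s were 156 ± 52.0 TPM (SD, n = 4) in sedentary and 199 ± 185 TPM (SD, n = 4) in exercised rats, a ratio of 1.28. The mean of the log2 values moved the other way. On log2(TPM + 1), exercised minus sedentary was -0.39 (SE 0.886, 95% interval -2.38 to 1.61, adjusted p = 0.893 by limma with Benjamini-Hochberg adjustment over 508 rows). An exact permutation test over the 70 assignments of libraries gave a two-sided p = 0.714, where 0.029 is the smallest p this design can give. No difference larger than the spread between libraries was found for Rn5s, and the interval allows a change in either direction. Without exercised a the log2 difference was 0.36 (limma adjusted p = 0.871), so this library set its sign.

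Rescaling multiplied the sedentary values by 1.01 to 1.87 and the exercised ones by 0.750 to 1.07. Rescaled Rn5s was at 295, 126, 186 and 202 TPM in sedentary a, b, c and d. In exercised a, b, c and d it was at 18.9, 41.1, 277 and 375 TPM. Exercised a and b again lay below every sedentary library, whereas exercised c now fell between sedentary d and sedentary a. The rescaled means were 202 ± 70.03 TPM in sedentary and 178 ± 176 TPM in exercised rats (SD, n = 4 each), a ratio of 0.879. The log2 difference was -1.01 (SE 0.906, 95% interval -3.03 to 1.01, limma adjusted p = 0.741) and the two-sided exact permutation p was 0.40. The ratio of means thus changed side with the scale, while the log2 difference stayed negative and was not past the threshold on either.

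**Figure D1:**
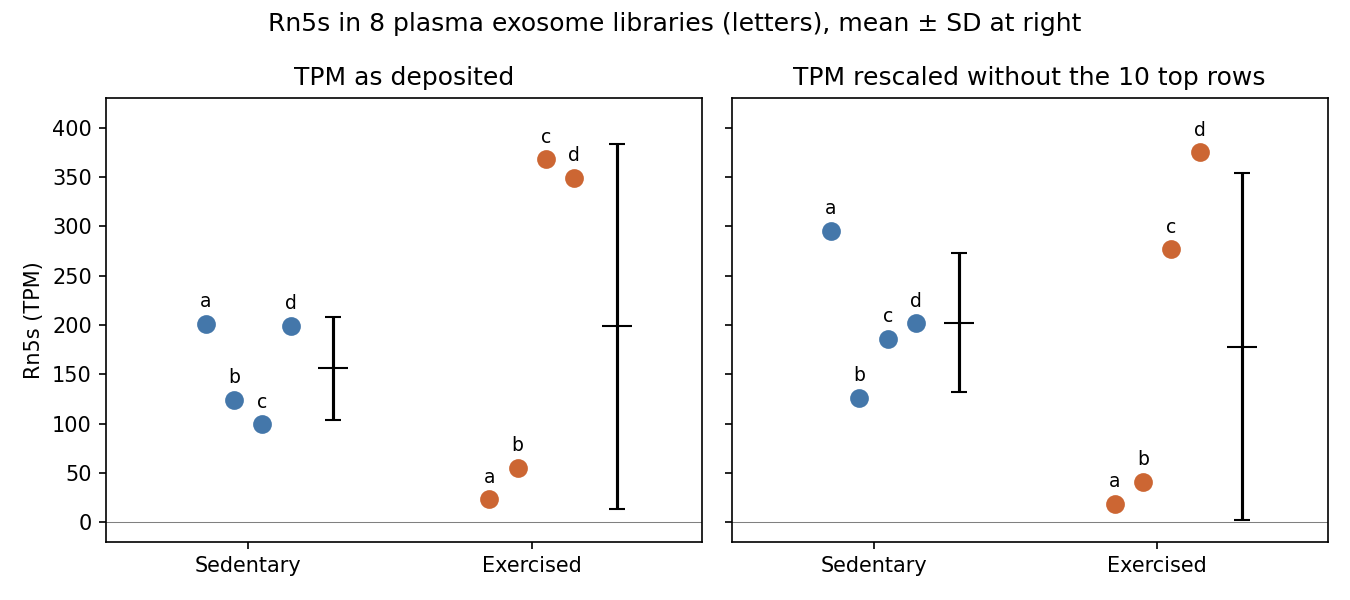
Rn5s in TPM (y axis) in each library, as deposited at left and rescaled at right. Points are libraries with their letters, and the bar beside each group is the mean ± SD of its 4 libraries. The exercised libraries run from 23.1 to 368 TPM as deposited, on both sides of the sedentary ones at 99.2 to 201 TPM.

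The spread of Rn5s within exercised rats was wide. Its highest value was 15.9 times its lowest among exercised libraries and 2.03 times among sedentary ones, as deposited. The SD of log2(TPM + 1) over the exercised libraries was 1.96, against a median of 0.89 over the 508 rows tested, and 34 of these rows had a larger one. Over the sedentary libraries its SD was 0.50, against a median of 0.61, and 309 rows had a larger one. Rn5s was thus among the more variable rows over exercised libraries and nearer the middle over sedentary ones, a description that was not tested. The pseudocount shrinks the SD of rows at low TPM, so these ranks depend partly on level. The low row Psma2 had a highest exercised value 14.3 times its lowest, but an SD of only 0.73 over exercised libraries.

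Counting error was small beside this spread. Exercised a had 18 Rn5s reads (exact Poisson interval 10.7 to 28.4) and exercised c had 590 (543 to 640). As a share of the reads outside the 10 rows, Rn5s made up 0.028% (exact binomial interval 0.016 to 0.044%) in exercised a and 0.068% (0.055 to 0.083%) in exercised b. The share was 0.572% (0.527 to 0.620%) in exercised c and 0.651% (0.598 to 0.707%) in exercised d. The 4 sedentary libraries lay between, from 0.249% (0.215 to 0.287%) in sedentary b to 0.456% (0.416 to 0.499%) in sedentary a. Intervals of exercised a and b did not reach those of any other library. Such intervals take reads as independent and cover counting error only. The reads outside the 10 rows are a lower bound, so the shares may be somewhat too high.

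Rn5s had a near twin in the table. In RefSeq (assembly GRCr8) Rn5s lies in a run of 38 consecutive entries of 5S size, of which 13 are listed as rRNA and 25 as pseudogene. Of the other 37 entries, 21 had a row in the table and 13 of those were above 0. Only LOC120096034 and LOC120096076 reached 100 reads over all libraries. LOC120096034, a pseudogene of 118 bases in RefSeq that lies 8 entries from Rn5s, had 476, 197, 238 and 423 reads in sedentary a, b, c and d, where Rn5s had 473, 190, 257 and 417. In exercised a, b, c and d it had 19, 75, 586 and 570 reads, where Rn5s had 18, 94, 590 and 561. The pair was split almost evenly in every library.

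Rn5s made up 48.6 to 55.6% of the reads of the pair per library, and all 8 exact binomial intervals covered an even share. Over all libraries its share was 50.2% (48.8 to 51.5%). Whether reads that fit both rows were divided between them was not tested, as the counter used is not known here. The level of Rn5s is therefore uncertain by as much as such a division would move. The pair summed to 404, 253, 191 and 400 TPM in sedentary a, b, c and d and to 47.5, 98.5, 733 and 703 TPM in exercised a, b, c and d, with a ratio of means of 1.27 as deposited and 0.880 rescaled. Rn5s is itself part of the pair, and its order of exercised libraries as deposited carried over, with a lowest and c highest. Rescaled, the pair was highest in exercised d, at 756 TPM, as Rn5s alone was.

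Likeness to Rn5s was measured as Pearson's r of log2(TPM + 1), on TPM as deposited, over the 8 libraries, for the 505 tested rows outside the members, and is given with no p. The closest row was LOC120096034 (r = 0.996). Psma2, which encodes a subunit of the proteasome core, came next (r = 0.943), and LOC120100437, a pseudogene of 118 bases in RefSeq outside that run, followed (r = 0.942). Without exercised a and b, the libraries farthest from the median of Rn5s, these values were 0.998, 0.803 and 0.953. On rescaled TPM, LOC120096034 was again the closest (r = 0.997), LOC120100437 had r = 0.948 at rank 3, and Psma2 had r = 0.915 at rank 9. Psma2 was low, at 0.172 to 2.46 TPM in exercised libraries and 0.854 to 1.46 TPM in sedentary ones. LOC120100437 was at 107, 43.7, 24.3 and 55.8 TPM in sedentary a, b, c and d and at 8.98, 7.58, 170 and 261 TPM in exercised a, b, c and d. It shared with Rn5s the low values of exercised a and b and the high values of exercised c and d.

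The most abundant LOC rows listed as rRNA of 5S size gave another order. RefSeq lists 26 LOC rows of the table as rRNA of 118 to 120 bases, of which 14 were above 0 and 10 were tested. The most abundant, LOC120096019, was at 189, 243, 340 and 262 TPM in sedentary a, b, c and d. In exercised a, b, c and d it was at 599, 264, 165 and 133 TPM, highest where Rn5s was lowest on TPM as deposited. Rescaled, LOC120096019 was highest in sedentary c instead. Its r with Rn5s was -0.91 as deposited and -0.42 rescaled, so the size of this opposition depended on the scale. The next one, LOC120098340, ranged only from 79.3 to 99.2 TPM in sedentary and from 93.7 to 150 TPM in exercised libraries. Summed over the 26 rows, the level was 560 to 702 TPM in sedentary libraries and 1051, 664, 477 and 427 TPM in exercised a, b, c and d. This sum was thus higher in exercised a and b, where Rn5s was low, than in exercised c and d. LOC120096019 alone held 599 of the 1051 TPM in exercised a. Rescaled, the sum was 859, 498, 358 and 459 TPM in exercised a, b, c and d.

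**Figure D2:**
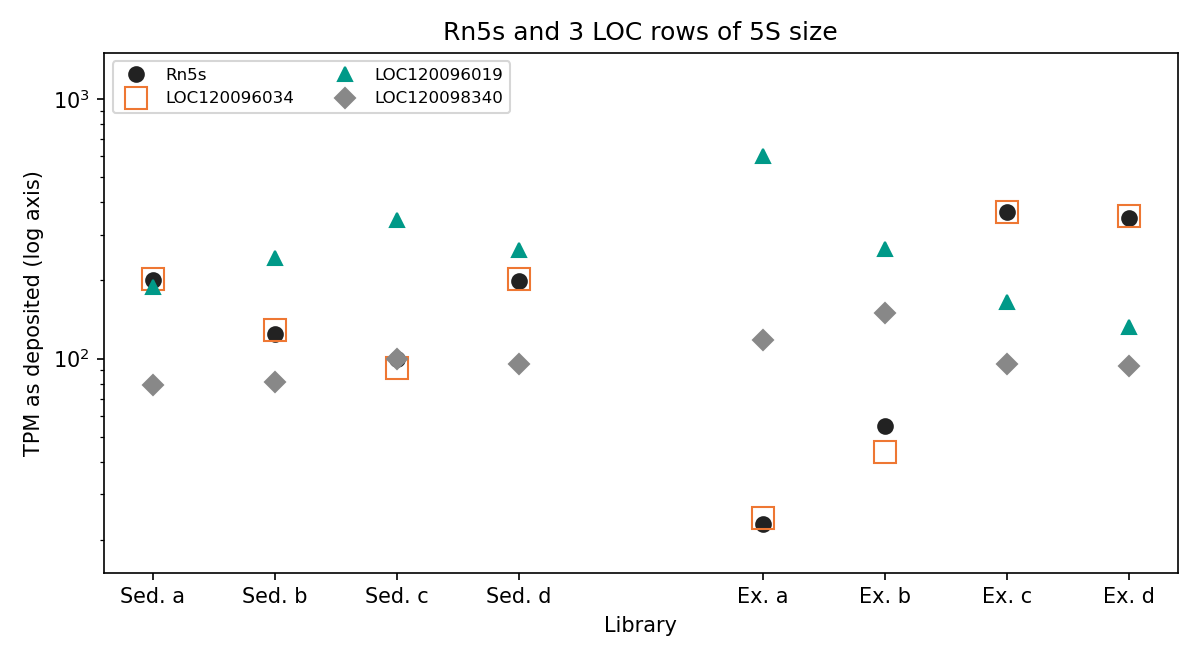
TPM as deposited (y axis, log scale) of Rn5s and of 3 LOC rows of 5S size in each of the 8 libraries (x axis). The squares of LOC120096034 lie on or close to the points of Rn5s in all 8 libraries, while LOC120096019 is highest in exercised a, at 599 TPM, where Rn5s is lowest, at 23.1 TPM.

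Rn5s was also set against other ribosomal RNA. The denominators were the rows among the 10 most abundant that RefSeq lists as rRNA, and LOC120096019. Per 1000 TPM of LOC120099694, an rRNA row of 153 bases, Rn5s was at 12.9, 13.4, 10.6 and 10.4 TPM in sedentary a, b, c and d. In exercised a, b, c and d it was at 3.67, 6.76, 25.5 and 21.9 TPM. The means were 11.8 ± 1.57 and 14.4 ± 10.8 (SD, n = 4 each), and a two-sided exact permutation test on log2 values gave p = 0.943 (also 0.943 after Benjamini-Hochberg adjustment over 4 ratios compared). This ratio does not depend on the other rows of the library. Both of its rows are rRNA left after depletion, and the extent of depletion in each library is not given. Exercised a and b were still below, and exercised c and d above, all sedentary libraries. Per 1000 TPM of LOC120096019, the row of 5S size, Rn5s was at 1067, 511, 292 and 759 TPM in sedentary a, b, c and d and at 38.5, 208, 2237 and 2631 TPM in exercised a, b, c and d (exact permutation p = 0.857, adjusted 0.943). As deposited, r with Rn5s over the 8 libraries was 0.892 for LOC120099694 and -0.91 for LOC120096019, so the spread of these ratios follows in part from those profiles. The sedentary libraries were close together relative to LOC120099694 and far apart relative to LOC120096019.

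The same was seen against LOC120093067 (4801 bases), with 0.792 to 1.49 TPM of Rn5s per 1000 TPM in sedentary libraries and 0.212, 0.614, 2.80 and 2.20 in exercised a, b, c and d (exact permutation p = 0.886, adjusted 0.943). Against LOC120102105 (1872 bases) the sedentary range was 0.419 to 1.001 and the values were 0.060, 0.142, 1.03 and 1.01 in exercised a, b, c and d (exact permutation p = 0.457, adjusted 0.943). Neither denominator placed any exercised library within the sedentary range, but against LOC120102105 exercised c and d were only just above it. Their distance from sedentary a, at 1.001, was smaller than the counting error of their 590 and 561 Rn5s reads. Rn5s thus varied among exercised rats relative to each of the 3 rRNA rows.

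**Figure D3:**
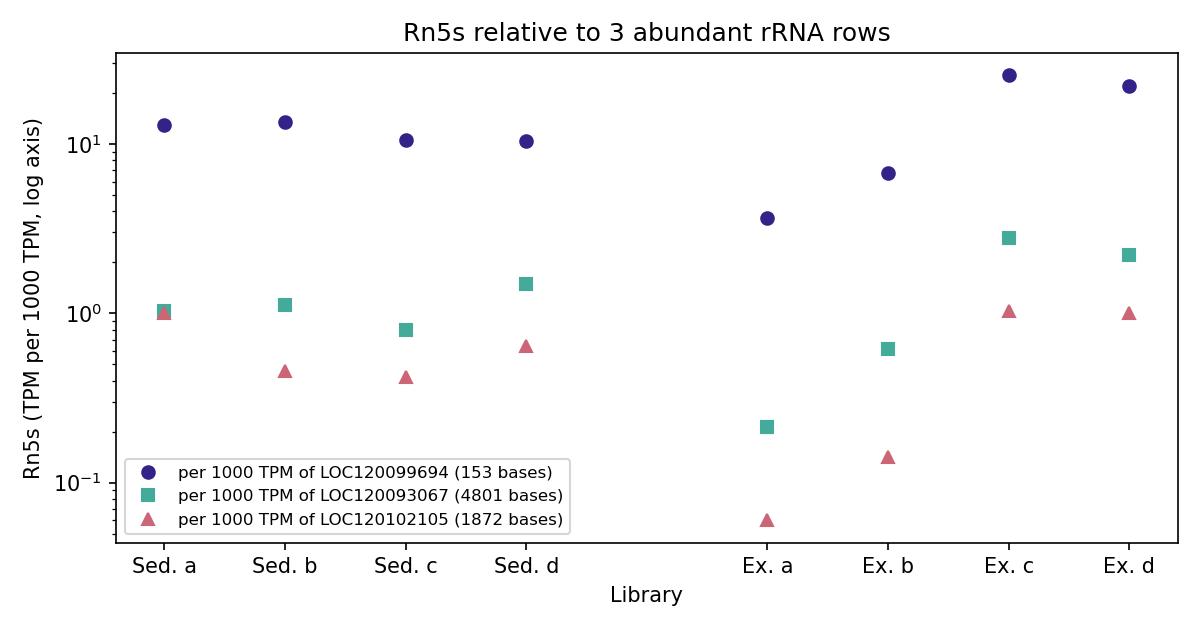
Rn5s in TPM per 1000 TPM of each of 3 abundant rRNA rows (y axis, log scale) in each library (x axis). Per 1000 TPM of LOC120099694 the sedentary libraries lie at 10.4 to 13.4 and the exercised ones at 3.67 to 25.5.

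The 6 copies named 5S_rRNA were at the limit of detection. Together they had 14, 5, 14 and 20 reads in sedentary a, b, c and d and 4, 5, 16 and 18 reads in exercised a, b, c and d. Their steps of TPM gave a length of 118 bases for each, as for Rn5s, except 123 for 5S_rRNA_6. None of the 6 names was found in RefSeq, so neither their place nor their status as gene or pseudogene is given. No pair of members had identical TPM in all libraries.

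5S_rRNA_7 (ENSRNOG00000068925) led these copies and was the only one of them with reads in every library. It was at 2.13, 1.31, 3.09 and 3.81 TPM in sedentary a, b, c and d, from 5, 2, 8 and 8 reads. In exercised a, b, c and d it was at 5.13, 2.92, 5.61 and 3.73 TPM, from 4, 5, 9 and 6 reads. The groups overlapped, with means of 2.58 ± 1.10 and 4.35 ± 1.25 TPM (SD, n = 4 each) and a ratio of 1.68. The log2 difference was 0.60 (SE 0.372, 95% interval -0.24 to 1.44, limma adjusted p = 0.575, two-sided exact permutation p = 0.143). Rescaled, the ratio was 1.04 and the log2 difference 0.11 (limma adjusted p = 0.942, exact permutation p = 0.743), and without sedentary b it was -0.17. The higher exercised mean of 5S_rRNA_7 as deposited was thus not seen on the rescaled values. Its total was 23 reads in sedentary and 24 in exercised libraries. Pearson's r with Rn5s over the 8 libraries was -0.01, from 2 to 9 reads a library.

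5S_rRNA_5 (ENSRNOG00000064696) rested on few libraries. It was at 1.70, 0.653, 1.16 and 0.477 TPM in sedentary a, b, c and d, from 4, 1, 3 and 1 reads. It was at 0 in exercised a and b, at 1.25 TPM in exercised c (2 reads) and at 6.22 TPM in exercised d (10 reads). A count of 0 allows up to 3 reads, which is 3.85 TPM in exercised a and 1.75 TPM in exercised b, so a level like that of the sedentary libraries was not detectable there. The means were 0.997 ± 0.551 and 1.87 ± 2.96 TPM (SD, n = 4 each), and exercised d alone carried most of the second. The log2 difference was 0.05 (SE 0.645, limma adjusted p = 0.988, exact permutation p = 0.971) as deposited and -0.22 (limma adjusted p = 0.919, exact permutation p = 0.771) rescaled. As deposited it turned to -0.08 without sedentary d, -0.03 without sedentary b and -0.01 without exercised c, and rescaled it turned to 0.10 without exercised a or b. The direction of 5S_rRNA_5 was thus not determined. Pearson's r with Rn5s over the 8 libraries was 0.75, from 0 to 10 reads a library.

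The remaining 4 members lay under the filter for testing, which asked for a mean of at least 1 TPM. 5S_rRNA_5 passed it at 1.43 TPM and 5S_rRNA_3 missed it at 0.850 TPM. 5S_rRNA_3 had 2, 2, 1 and 5 reads in sedentary a, b, c and d and 0, 0, 3 and 0 in exercised a, b, c and d. It was seen in every sedentary library and in 1 exercised library, at counts where 0 and 2 reads cannot be told apart. 5S_rRNA_1 had 3, 0, 0 and 6 reads in sedentary a, b, c and d and 0, 0, 1 and 1 in exercised a, b, c and d. 5S_rRNA_6 had 2 reads in sedentary c and 1 in exercised c, and 5S_rRNA_2 had 1 read, in exercised d, the least that the choice of members allows. No difference can be read from these 4 copies.

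**Figure D4:**
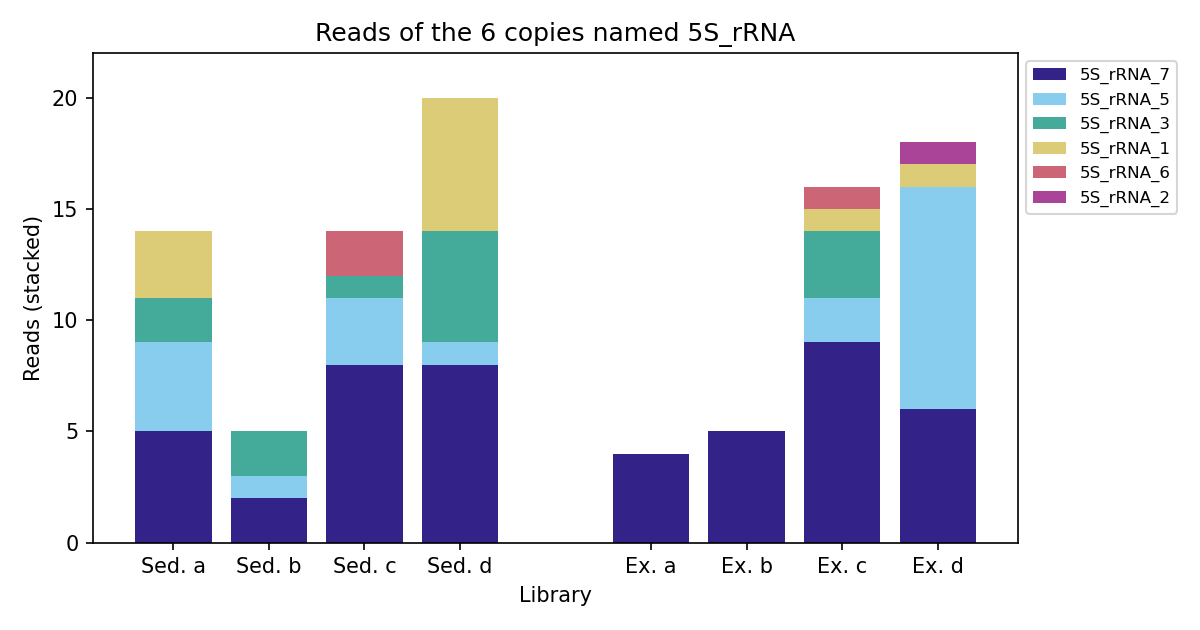
Reads (y axis, stacked) of the 6 members named 5S_rRNA in each library (x axis). Sedentary d has the most, 20 reads, and exercised a the fewest, 4 reads, all of 5S_rRNA_7.

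Over the members, 0 of the 3 tested passed an adjusted p of 0.05 by limma on either scale, and over all 508 rows tested 0% passed on either scale. At an unadjusted p under 0.05 the count was also 0 of 3, where 10.6% of all rows passed as deposited (8.46% higher and 2.17% lower in exercised rats) and 7.68% rescaled (3.15% higher and 4.53% lower). The groups overlapped for all 3, where 5.91% of all rows did not overlap as deposited and 3.94% rescaled. With limma's voom on the recovered reads no row passed the adjusted threshold and no member the unadjusted one. The median log2 difference of the 3 members was 0.05 as deposited and -0.22 rescaled, against 0.40 and -0.01 over all rows tested. Rescaling thus lowered both medians.

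The summed TPM of the 7 members was 207, 127, 105 and 208 in sedentary a, b, c and d and 28.2, 57.7, 378 and 360 in exercised a, b, c and d. The ratio of group means was 1.27 as deposited and 0.877 rescaled, and Rn5s set both. Without exercised d the rescaled ratio was 0.555. Without Rn5s the sum was 3.26 to 9.54 TPM in sedentary and 2.92 to 11.2 TPM in exercised libraries, with a ratio of 1.21 as deposited and 0.814 rescaled. Sums over members are given with no test.

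**Figure D5:**
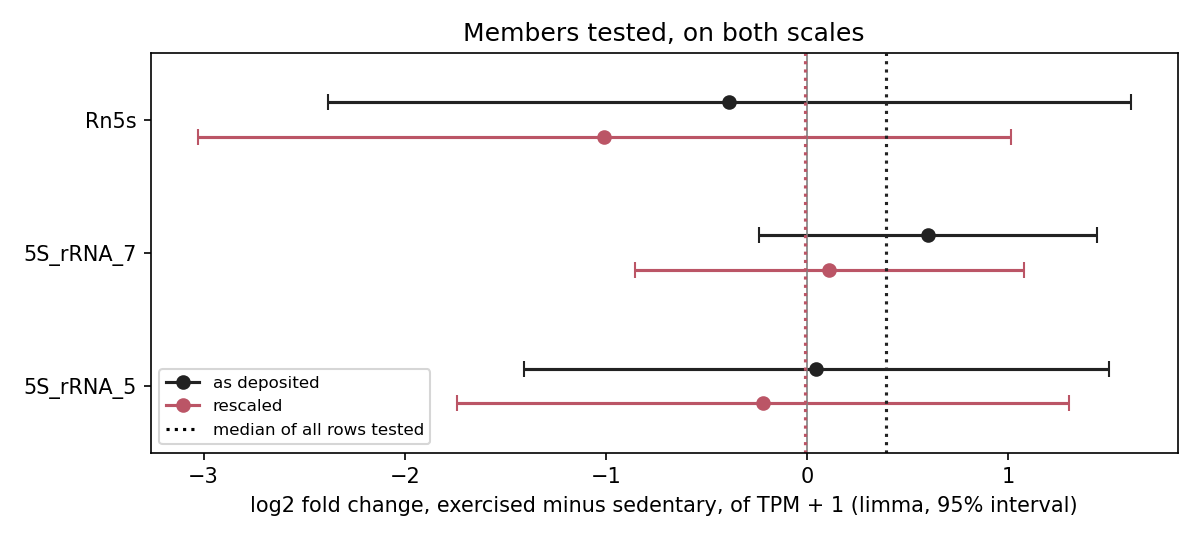
Difference between exercised and sedentary rats in log2(TPM + 1) (x axis) for the 3 members tested, as deposited and rescaled, with 95% intervals by limma. All 6 intervals cover 0, and the dotted lines mark the medians of the 508 rows tested, 0.40 and -0.01.

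Messenger RNAs of the 5S pathway were too scarce to compare. Of the 24 genes listed for 5S transcription (TFIIIA, TFIIIC, TFIIIB, RNA polymerase III and its repressor Maf1), all 24 were above 0 in at least 1 library, but only 1 was tested. This was Polr3gl, a subunit of RNA polymerase III, at 0.087, 0.266, 1.06 and 2.92 TPM in sedentary a, b, c and d and at 0.131, 5.11, 0.318 and 0.825 TPM in exercised a, b, c and d (log2 difference 0.14, limma adjusted p = 0.935). Gtf3a, which encodes TFIIIA, had 1 read, in exercised d. The groups of Polr3gl overlapped widely.

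Of the genes listed for the 5S particle and its handling, 9 were in the table and above 0, and only Rpl11, a 5S-binding protein of the large subunit, was tested. Rpl11 was at 0.098, 1.51, 0.267 and 0.936 TPM in sedentary a, b, c and d and at 4.001, 0.875, 0.216 and 0.431 TPM in exercised a, b, c and d (log2 difference 0.32, limma adjusted p = 0.846). It was highest in exercised a, where Rn5s was lowest. For 5.8S processing, 25 listed genes were in the table, 23 were above 0 and none was tested. The highest of them, Exosc6, a subunit of the RNA exosome, which trims the 3′ end of 5.8S RNA, was at 0.173 to 0.844 TPM in sedentary and 0.227 to 0.826 TPM in exercised libraries.

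Other small RNAs made by RNA polymerase III gave the following counts by the same fits. Of 5 tested copies of U6 snRNA, a spliceosome RNA, 2 had an unadjusted p under 0.05 and were higher with exercise as deposited, and 1 did so rescaled. Over all 508 rows, 8.46% were higher at that threshold as deposited and 3.15% rescaled. Of 21 tested copies of the signal recognition particle RNA, which targets secreted proteins to the membrane, 3 were higher as deposited and 0 rescaled. Of 2 tested copies of Y RNA, a partner of the Ro60 protein, 1 was higher on both scales. Rpph1, the RNA of RNase P, did not pass on either scale, and none of these rows was lower or passed an adjusted p of 0.05. Whether these RNAs differ from the 5S copies in their response was not tested.

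In exercised c and d, the libraries of highest Rn5s as deposited, the sum of neutrophil markers was high and that of hepatocyte markers low. Of 7 neutrophil markers, 6 were above 0 in at least 1 library and Elane was at 0 in all. Their summed level was 1.003, 0, 6.57 and 6.01 TPM in sedentary a, b, c and d and 0, 0.165, 56.8 and 82.8 TPM in exercised a, b, c and d. It was highest in exercised c and d, as Rn5s was, and the defensins RatNP-3b and Np4 made up most of it. Of 6 hepatocyte markers, all were above 0 in at least 1 library, and their sum was 27.3, 11.7, 47.0 and 67.9 TPM in sedentary a, b, c and d. In exercised a, b, c and d it was 16.6, 47.9, 1.44 and 0.393 TPM, lowest in exercised c and d. Ttr made up most of this sum in exercised a and b, at 13.3 and 40.0 TPM. Not every hepatocyte marker had this order. Alb was lowest in exercised a, at 0.058 TPM, against 0.394 TPM in exercised c and 0.253 TPM in exercised d. Apoa1 was at 0 in exercised a, c and d. Of the 4 hepatocyte markers tested, Alb and Hpx had lower exercised values with an unadjusted p below 0.05 by limma on both scales, where 2.17% of all rows did as deposited and 4.53% rescaled, and none passed the adjusted threshold. The part of either cell type in the levels of Rn5s was not tested.

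The other marker lists did not follow that order. Erythroid markers summed to 9.46 to 69.6 TPM in sedentary libraries and 29.8 to 133 TPM in exercised ones, with the maximum in exercised a. Platelet markers summed to 0.822 to 3.21 TPM in sedentary and 6.22 to 12.9 TPM in exercised libraries, also with the maximum in exercised a, and the 1 platelet marker tested, Pf4, was higher in exercised rats at an unadjusted p below 0.05 on both scales, as were 8.46% of all rows as deposited and 3.15% rescaled. It did not pass the adjusted threshold. Lymphocyte and monocyte markers stayed at or under 0.198 TPM and skeletal muscle markers at or under 0.127 TPM in every library. In these bulk samples, fewer vesicles or cells of a type and less RNA per vesicle or cell cannot be told apart.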

How the data were processed

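The authors deposited 1 table of TPM values for 29541 rows and 8 libraries, made by aligning and counting reads and dividing by gene length. The genome build was mRatBN7.2, according to the processing notes of the submitters. Which aligner, counter and annotation served was not given in the sources used here. Columns were mapped to libraries by their labels. The members and lists were chosen with earlier results of these data known.

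Whole reads were recovered as the smallest whole numbers that give a row's TPM in all libraries. A row seen in few libraries can have more reads than these. At a tolerance of 1e-06 reads, 71860 of 71860 values came out whole, against 0 of 1758 values multiplied by a random factor. Lengths are those the steps imply, with the scale set by small RNAs of known RefSeq length. Precision was taken from exact binomial or Poisson intervals at 95%, and a count of 0 was read as up to 3 reads.

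Rows with a mean of at least 1 TPM (508) were tested on log2(TPM + 1) by limma 3.58.1 in R 4.3.3, with eBayes trend, no covariates and Benjamini-Hochberg adjustment. A fold change on this scale understates the change of low rows. Single members were also tested by exact permutation (Python 3.11.15, numpy 2.4.6), and exact intervals were computed with scipy 1.17.1. Rescaled TPM was TPM times the mean over libraries of the TPM outside the 10 rows of highest mean TPM, divided by that of the library. The limma step was also run on simulated rows with added fold changes, drawn without the fixed total of TPM. The outcome is not given here, and no result above rests on it.

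The text names every member, up to 3 genes of highest mean TPM in each list and the 3 rows most like Rn5s. LOC120096019, LOC120098340, LOC120096076, Gtf3a, Elane and the rRNA rows among the 10 most abundant were chosen after their values were seen. Alternatives were the pseudocount, the filter, the scaling, voom, a replicate block and leaving out each library. RefSeq names and lengths are of assembly GRCr8, a build other than that of the table, so none of its coordinates are given.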

Additional observations from a re-analysis of the deposited data

Results flagged for a closer look

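Among 22 groups of 4 libraries looked at over the members and both scales, 2 values stood apart from the other 3 of their group, and chance flags about 1 in 20 groups. These 22 do not take in every group of every member. Groups with reads in only 1 library, such as 5S_rRNA_3 in exercised rats, were not flagged. Rescaled 5S_rRNA_7 in exercised b was 2.19 TPM, against 4.01 to 4.22 TPM in the other exercised libraries, and it rested on 5 reads. Rescaled 5S_rRNA_5 in exercised d was 6.68 TPM, against 0 to 0.938 TPM in the others, and it rested on 10 reads. Neither value of the same library was as far apart on TPM as deposited.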

How the results depend on the processing

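No member passed an adjusted p of 0.05 under any alternative, and Rn5s kept its negative log2 difference under all of them except without exercised a on TPM as deposited, where it was 0.36. Leaving out each library in turn moved Rn5s from -0.95 to 0.36 as deposited and from -1.66 to -0.25 rescaled. 5S_rRNA_5 changed direction from 0.05 as deposited to -0.88 with a pseudocount of 0.1, -0.13 with median-ratio scaling and -0.047 with voom on recovered reads, and ranged from -0.085 to 0.38 with libraries left out. Rescaled, it turned to 0.10 without exercised a or b (range -0.43 to 0.10), and it could not be tested without exercised d, where its mean fell under the filter. 5S_rRNA_7 turned to -0.17 without sedentary b on rescaled values (range -0.17 to 0.34) and ranged from 0.41 to 0.76 as deposited. The ratio of summed member TPM ranged from 0.919 to 1.64 as deposited and from 0.555 to 1.13 rescaled with libraries left out, and without Rn5s, a sum added after seeing the data, from 0.995 to 1.5003 and from 0.581 to 0.994. Which rats or days the letters a to d share is not given, and the replicate block changed no call: with it Rn5s stayed at -0.39 (limma adjusted p = 0.922) as deposited and -1.01 (0.839) rescaled. Same-lettered libraries did not deviate together (r from -0.26 to -0.005), so the letters were not read as pairs. The alternatives for 5.8S sums were not run, as no row had such a name. At 0 to 10 reads a library, the 5S_rRNA copies allow no finer comparison.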
